A study of Mus musculus with 12 samples.

Results

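The bridge was compared with the distal stump in control sciatic nerves of mice, 14 days after injury. The bridge is the new tissue that joins the ends of a cut nerve, and the distal stump is the old nerve beyond the injury, cut off from its cell bodies. The 6 libraries described here, out of 12 in the series, were taken by region: 3 of CTL bridge (libraries 1 to 3) and 3 of CTL distal stump (libraries 1 to 3). All came from mice of the genotype P0-CreERT2:YFPfl/fl:Nf1+/+, in which both copies of Nf1 are intact, so the CTL values below are from nerves that carry the inducible Cre and the YFP reporter but no floxed Nf1. The other 6 libraries are the same regions of P0-CreERT2:YFPfl/fl:Nf1fl/fl nerves (Nf1 KO), in which tamoxifen induces loss of Nf1. The P0 promoter restricts that loss to myelinating Schwann cells, and the labels mention tamoxifen for Nf1 KO only. Each sample joined 6 fragments of 0.5 mm from several mice, so a library is a pool and not an animal. With 3 pools a group, the p-values measure the spread between pools.

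After a cut, Schwann cells of the distal stump lose their myelin programme, become repair cells that make trophic factors, and recruit macrophages that clear myelin debris. The bridge forms anew from matrix, fibroblasts, macrophages and blood vessels, and Schwann cells migrate into it as cords that guide regrowing axons. Fibroblast-like cells around these cords and at the rim of the nerve can form perineurium, a sheath that depends on hedgehog signals from Schwann cells during development. Whole tissue was sequenced, so fewer cells of a type and less RNA per cell cannot be told apart in any result below.

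Levels are in CPM, the counts scaled to a common library size with edgeR's TMM factors, and changes are log2 fold changes of CTL bridge over CTL distal stump. A gene is called higher or lower where edgeR's quasi-likelihood test, fitted to all 12 libraries, gave a Benjamini-Hochberg adjusted p under 0.05. Library totals were 18821445 to 35871914 counts in CTL bridge and 28852593 to 35653461 in CTL distal stump, and 19189 of 30452 genes were abundant enough to test. Coordinates given with genes are on the GRCm38 assembly. Schwann cell genes were abundant in all 6 libraries. Sox10, the lineage transcription factor gene, stood at 81.6, 78.5 and 73.1 CPM in CTL bridge and 115, 104 and 89.6 CPM in CTL distal stump, so both regions carried this marker of nerve tissue. Muscle RNA was uneven. Mylpf, a fast muscle myosin light chain gene and the most abundant of the muscle fibre list, stood at 2046, 233 and 1779.5 CPM in CTL bridge and 9.19, 58.4 and 55.1 CPM in CTL distal stump (log2 fold change 5.05, SE 1.61, edgeR adjusted p = 0.0755), so CTL bridge 1 and 3 held far more muscle RNA than the other 4 libraries. Muscle fibre markers are described below, and counts without CTL bridge 1 and 3 are given beside some of the main results. Those counts rest on CTL bridge 2 as the only CTL bridge library. With Mylpf at 233 CPM, CTL bridge 2 also held more muscle RNA than any CTL distal stump library, so these counts are not free of it.

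In total, 1891 genes were called, 9.85% of those tested: 988 were higher in CTL bridge (5.15%) and 903 were lower (4.71%). A difference of at least 2-fold was found in 355 called genes (1.85%), 203 higher and 152 lower. The median log2 fold change over all tested genes was −0.00. In 5688 genes (29.6%) the 3 bridge libraries did not overlap the 3 distal stump libraries. The count of calls depends on single libraries: leaving out CTL bridge 1 gave 685, leaving out CTL bridge 2 gave 1029, leaving out CTL distal stump 1 gave 681 and leaving out CTL distal stump 2 gave 802. With CTL bridge 1 and 3 both left out, 506 genes were called. A set of 541 genes, 320 higher and 221 lower, kept its call under DESeq2, under another scaling, with the replicate number as a block and with each of the 6 libraries left out in turn. Such calls are referred to below as held calls.

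The same comparison within Nf1 KO nerves used the other 6 libraries, which share the filter, scaling and estimate of spread of the fit with the CTL libraries. It called 2914 genes (15.2% of those tested). Of the 1891 CTL calls, 1031 (54.5%) were also called there in the same direction, which is 35.4% of the Nf1 KO calls, and 10 were called in the opposite direction. Of the 541 held calls, 414 (76.5%) were called in Nf1 KO in the same direction and 0 in the opposite direction. Fitted to the 6 Nf1 KO libraries alone, an alternative chosen after seeing the data, edgeR called 2196 of 18272 genes, among them 916 (48.4%) of the CTL calls and 381 (70.4%) of the held calls in the same direction. With each genotype fitted alone, 473 of 869 CTL calls (54.4%) were called in Nf1 KO in the same direction and 2 in the opposite. Nf1 itself was at 62.5, 67.4 and 60.1 CPM in CTL bridge and 69.7, 57.0 and 67.3 CPM in CTL distal stump, and the groups overlapped (log2 fold change −0.03, SE 0.10, edgeR adjusted p = 0.901).

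**Figure D1:**
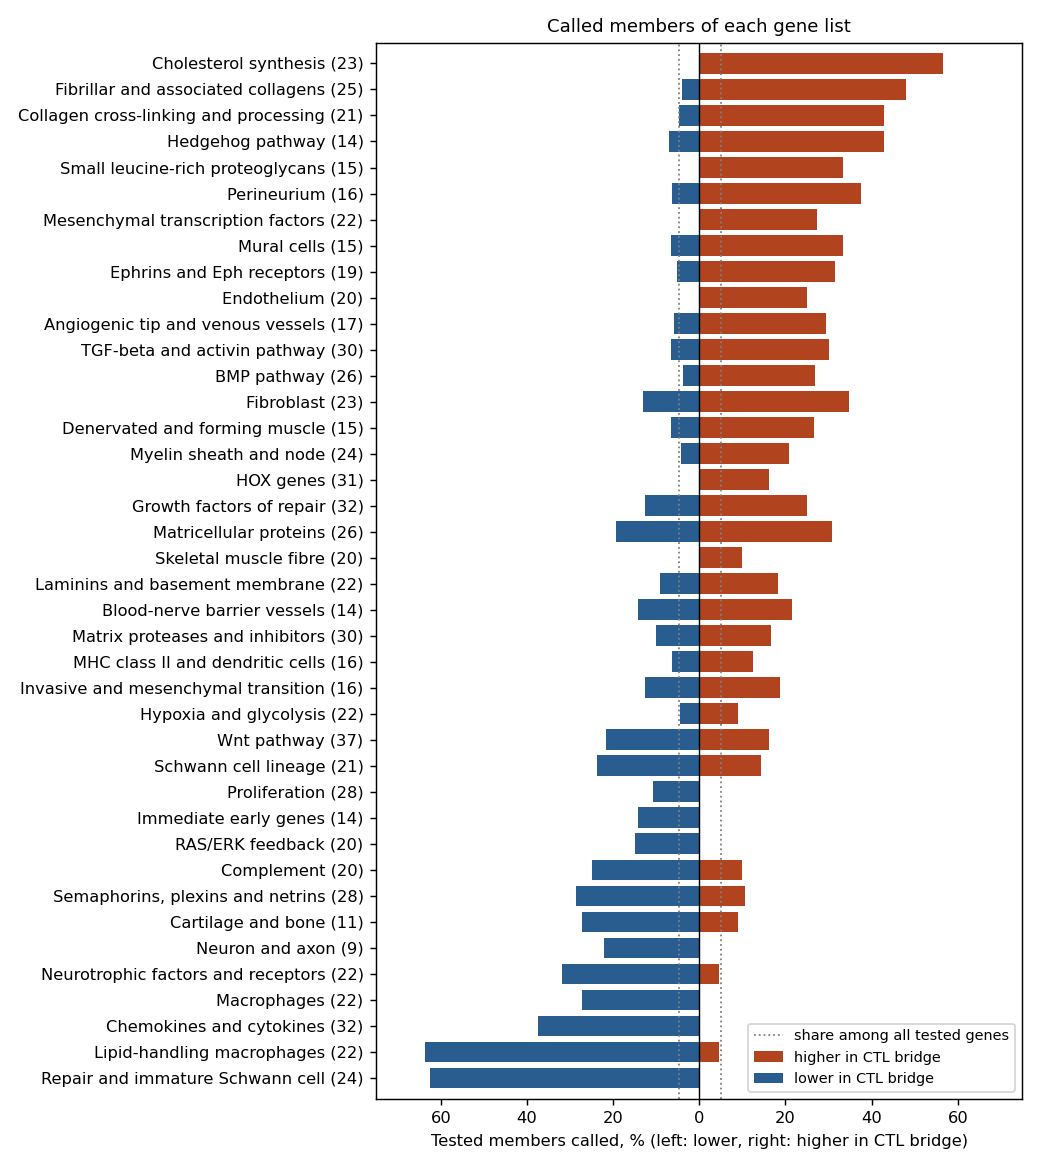
Share of the tested members of each gene list (number tested in parentheses) that were called higher (right) or lower (left) in CTL bridge than in CTL distal stump, for lists with at least 2 called members. Dotted lines mark the shares among all tested genes, 5.15% higher and 4.71% lower. Repair Schwann cell genes and lipid-handling macrophage genes lie mostly to the left, and cholesterol synthesis, collagen and hedgehog genes mostly to the right.

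Genes of the repair programme of Schwann cells were lower in the bridge. Of 24 genes of repair and immature Schwann cells, 15 were called lower and 0 higher, and the median log2 fold change was −1.11 while the median of all tested genes was −0.00. The number called lower was 9 leaving out CTL bridge 1 or CTL distal stump 1 and 11 to 16 leaving out any 1 of the others, and 12 without CTL bridge 1 and 3. Held calls made up 8 of them. Artn (chromosome 4, 117926162 to 117929763), which encodes the GDNF-family ligand artemin, showed the largest fall. It stood at 0.512, 1.05 and 0.794 CPM in CTL bridge and 4.13, 4.12 and 3.50 CPM in CTL distal stump. The highest bridge library was thus below the lowest distal stump library at low levels in both regions (log2 fold change −2.29, SE 0.33, edgeR adjusted p = 0.00376).

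Several signals that injured Schwann cells send to neurons and neighbouring cells followed the same direction. Shh (chromosome 5, 28456815 to 28467256), the ligand sonic hedgehog, stood at 9.32, 10.3 and 16.5 CPM in CTL bridge and 34.7, 38.2 and 31.5 CPM in CTL distal stump. For Shh the log2 fold change was −1.52, SE 0.22 (edgeR adjusted p = 0.00420). Gdnf (chromosome 15, 7810846 to 7837575), a survival factor for motor neurons, was at 1.48, 1.74 and 2.77 CPM in CTL bridge and 5.67, 5.97 and 4.53 CPM in CTL distal stump. For Gdnf the log2 fold change was −1.42, SE 0.22 (edgeR adjusted p = 0.00518). Lif, a cytokine of the IL-6 family, was at 5.32, 4.68 and 8.52 CPM in CTL bridge and 14.0, 14.9 and 13.8 CPM in CTL distal stump. For Lif the log2 fold change was −1.20, SE 0.21 (edgeR adjusted p = 0.00856). In each of the 3 genes CTL bridge 3 was the highest bridge library, yet still below every distal stump library. Btc, which encodes the EGF receptor ligand betacellulin, had 18.2, 19.03 and 35.7 CPM in CTL bridge and 56.9, 54.8 and 48.9 CPM in CTL distal stump. For Btc the log2 fold change was −1.13, SE 0.22 (edgeR adjusted p = 0.0119). The groups did not overlap for Btc either, and CTL bridge 3 again stood between the other bridge libraries and the distal stump.

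Transcription factors and structural genes of the programme were lower too. Runx2 (chromosome 17, 44495987 to 44814797), a transcription factor of bone that repair Schwann cells also switch on, stood at 17.4, 13.1 and 31.2 CPM in CTL bridge and 58.9, 51.1 and 49.0 CPM in CTL distal stump. For Runx2 the log2 fold change was −1.36, SE 0.24 (edgeR adjusted p = 0.00912). Sox2, a factor of immature Schwann cells, was at 23.5, 25.8 and 31.6 CPM in CTL bridge and 58.4, 51.6 and 44.8 CPM in CTL distal stump. For Sox2 the log2 fold change was −0.93, SE 0.16 (edgeR adjusted p = 0.00841). Gap43, a growth-associated membrane protein gene, was at 25.6, 24.7 and 37.9 CPM in CTL bridge and 76.4, 66.5 and 55.2 CPM in CTL distal stump. For Gap43 the log2 fold change was −1.16, SE 0.17 (edgeR adjusted p = 0.00415). All 3 were separated without overlap, with 1 bridge library, CTL bridge 3, nearest to the distal stump. Olig1, a glial transcription factor gene, was called as well (4.50, 3.47 and 14.0 CPM in CTL bridge and 29.6, 28.3 and 21.6 CPM in CTL distal stump, log2 fold change −1.83, SE 0.42, edgeR adjusted p = 0.0218), but its adjusted p was 0.0825 after leaving out CTL bridge 1, 0.0510 after leaving out CTL bridge 2, 0.0744 after leaving out CTL distal stump 1 and 0.0690 after leaving out CTL distal stump 2. Jun, the factor that drives the repair state, was lower in every bridge library and was not called (63.4, 61.5 and 77.7 CPM in CTL bridge and 93.9, 93.9 and 79.6 CPM in CTL distal stump, log2 fold change −0.40, SE 0.12, edgeR adjusted p = 0.0647). Of the remaining members, Gfap had a log2 fold change of −0.61 and Ncam1 at 0.17, both without a call. In Nf1 KO nerves the list had a median log2 fold change of −0.73, with Shh at −0.90 (adjusted p = 0.0224), Artn at −1.03 (adjusted p = 0.0485) and Gap43 at −1.26 (adjusted p = 0.00127).

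**Figure D2:**
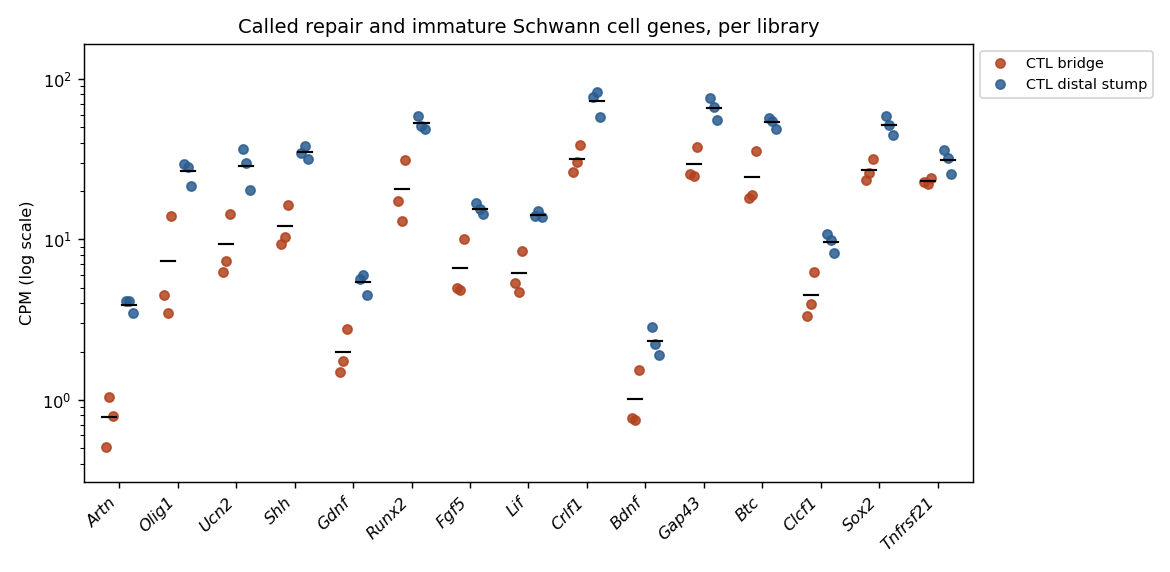
CPM (log scale) of the 15 called repair and immature Schwann cell genes in the 3 CTL bridge libraries (left of each pair) and the 3 CTL distal stump libraries (right), with horizontal lines at the means. In every gene the bridge libraries lie below the distal stump libraries, and for Shh the highest bridge point is CTL bridge 3 at 16.5 CPM.

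The promoter of Lif is shown because Lif fell and because its window holds a site for AP-1, the factor family to which JUN belongs. Promoters are RefSeq windows of GRCm38.p6, 300 bases across a start, and capitals mark TGANTCA, searched on both strands. The motif was found for 3 of the 14 repair list genes that have a window (2 of 9 called lower), against 8.97% of all genes with a window and 7.81% of all windows. Here and below, a gene with several windows counted if any of them held the motif. Of the 3 genes, Bdnf has 7 windows, Igfbp2 has 2 and Lif has 1, so Bdnf and Igfbp2 had more letters in which to match. The Lif window lies at chr11:4257318-4257617, plus strand.
Lif promoter: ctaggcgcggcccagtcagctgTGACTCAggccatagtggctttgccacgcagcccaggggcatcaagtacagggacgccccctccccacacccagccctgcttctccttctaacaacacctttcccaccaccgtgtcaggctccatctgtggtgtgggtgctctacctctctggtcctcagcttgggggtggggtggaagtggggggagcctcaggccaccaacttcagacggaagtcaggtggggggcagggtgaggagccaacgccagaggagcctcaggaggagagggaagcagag
A match describes the letters and shows no binding.

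Among neurotrophic factors and their receptors, 7 of 22 were lower and 1 was higher (the number lower was 4 leaving out CTL bridge 1 or CTL distal stump 1 and 6 to 7 leaving out any 1 of the others). Beside Artn, Gdnf and Lif, the receptor gene Ngfr, which encodes the p75 neurotrophin receptor of non-myelinating Schwann cells, stood at 104, 108 and 174 CPM in CTL bridge and 302, 284 and 260.3 CPM in CTL distal stump. For Ngfr the log2 fold change was −1.13, SE 0.18 (edgeR adjusted p = 0.00628). Its groups did not overlap, and CTL bridge 3 was again the highest of its group. Cntf had a log2 fold change of 0.48 without a call (adjusted p = 0.136). Growth factors of repair had 8 of 32 higher and 4 lower. The number higher was 3 leaving out CTL bridge 1, 4 leaving out CTL bridge 2, CTL distal stump 1 or CTL distal stump 2, 5 leaving out CTL bridge 3 and 6 leaving out the other, and the number lower was 1 leaving out CTL bridge 1, CTL bridge 2 or CTL distal stump 1, 2 leaving out CTL distal stump 2 and 3 to 4 leaving out any 1 of the others. Vegfa (chromosome 17, 46016993 to 46032369), the main growth factor of blood vessels, was at 55.6, 53.3 and 41.8 CPM in CTL bridge and 15.5, 22.0 and 31.0 CPM in CTL distal stump. For Vegfa the log2 fold change was 1.13, SE 0.22 (edgeR adjusted p = 0.0120). Fgf1 had 85.3, 87.2 and 75.6 CPM in CTL bridge and 40.4, 54.6 and 51.9 CPM in CTL distal stump (log2 fold change 0.76, SE 0.13, edgeR adjusted p = 0.00781), and Igf1 had 172, 166 and 194 CPM in CTL bridge and 110.1, 119 and 124 CPM in CTL distal stump. For Igf1 the log2 fold change was 0.59, SE 0.08 (edgeR adjusted p = 0.00313). All 3 were higher in every bridge library than in any distal stump library.

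Lineage genes went both ways, and in the main fit more myelin genes were called higher than lower. Of 21 Schwann cell lineage genes, 5 were lower and 3 higher, and the median log2 fold change was −0.24 (the number lower was 2 leaving out CTL distal stump 1 or CTL distal stump 2, 3 leaving out CTL bridge 1, CTL bridge 2 or CTL bridge 3 and 5 leaving out the other, and the number higher was 1 leaving out CTL bridge 2 or CTL distal stump 1 and 2 to 4 leaving out any 1 of the others). Cdh19, a cadherin gene of the Schwann cell lineage, was at 169, 173 and 193 CPM in CTL bridge and 260.3, 227 and 240.4 CPM in CTL distal stump (log2 fold change −0.44, SE 0.08, edgeR adjusted p = 0.00856), while Scn7a, a sodium-channel gene of non-myelinating Schwann cells, was at 150.4, 154 and 126 CPM in CTL bridge and 78.4, 88.2 and 93.6 CPM in CTL distal stump. For Scn7a the log2 fold change was 0.72, SE 0.09 (edgeR adjusted p = 0.00258). Both calls were held, in opposite directions. Sox10 was called lower (log2 fold change −0.40, SE 0.10, edgeR adjusted p = 0.0354), but the adjusted p was 0.0785 after leaving out CTL bridge 1, 0.0883 after leaving out CTL bridge 2, 0.0942 after leaving out CTL bridge 3, 0.135 after leaving out CTL distal stump 1 and 0.104 after leaving out CTL distal stump 2. Of 24 genes of the myelin sheath and node, 5 were higher and 1 lower, and the median log2 fold change was 0.45. The number called higher was 1 leaving out CTL distal stump 1 or CTL distal stump 2, 2 leaving out CTL bridge 1 or CTL bridge 2, 10 leaving out CTL bridge 3 and 4 leaving out the other.

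Ncmap, which encodes a membrane protein of non-compact myelin, was the held rise among myelin genes. It stood at 338, 336 and 221 CPM in CTL bridge and 133, 148 and 158 CPM in CTL distal stump (log2 fold change 1.03, SE 0.18, edgeR adjusted p = 0.00775), with CTL bridge 3 lowest of the bridge libraries and still above the distal stump. Mbp was higher in every bridge library and was not called (log2 fold change 0.53, SE 0.17, adjusted p = 0.0746). Nrcam, a cell adhesion gene of the node, was lower (17.7, 18.8 and 21.8 CPM in CTL bridge and 35.5, 31.2 and 28.4 CPM in CTL distal stump, log2 fold change −0.70, SE 0.13, edgeR adjusted p = 0.0105), with no overlap of the groups.

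Genes of macrophages that take up and export lipid were lower in the bridge. Of 22 lipid-handling macrophage genes, 14 were called lower and 1 higher, and the median log2 fold change was −0.61. The number lower was 3 leaving out CTL bridge 1, CTL bridge 2, CTL distal stump 1 or CTL distal stump 2 and 12 to 14 leaving out any 1 of the others, and 7 without CTL bridge 1 and 3. Held calls made up 3 of the 14. The cholesterol exporter gene Abca1 (chromosome 4, 53030787 to 53159895) stood at 197, 196 and 277 CPM in CTL bridge and 511, 403 and 393 CPM in CTL distal stump. For Abca1 the log2 fold change was −0.96, SE 0.14 (edgeR adjusted p = 0.00396). Its relative Abcg1 was at 37.4, 35.1 and 54.7 CPM in CTL bridge and 118, 108 and 81.4 CPM in CTL distal stump. For Abcg1 the log2 fold change was −1.27, SE 0.19 (edgeR adjusted p = 0.00441). Apoe (chromosome 7, 19696109 to 19699188), whose product carries exported lipid, was at 9744, 9654 and 13153 CPM in CTL bridge and 22712, 20062 and 14989 CPM in CTL distal stump. For Apoe the log2 fold change was −0.83, SE 0.15 (edgeR adjusted p = 0.00934). In each of the 3 genes the regions did not overlap, and CTL bridge 3 was the bridge library nearest to the distal stump. The exception in the list was Ctsk, the cathepsin K gene, which fibroblasts and osteoclasts also express. It was higher in the bridge (176, 185 and 173 CPM in CTL bridge and 102, 109 and 124 CPM in CTL distal stump, log2 fold change 0.67, SE 0.08, edgeR adjusted p = 0.00254). In Nf1 KO the list had a median log2 fold change of −0.73, with Apoe at −1.38 (adjusted p = 0.000610).

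General macrophage markers showed the same sign with fewer calls, 6 of 22 lower and 0 higher (median log2 fold change −0.53, and the number lower was 1 leaving out CTL bridge 1, CTL distal stump 1 or CTL distal stump 2, 2 leaving out CTL bridge 2 and 5 to 9 leaving out any 1 of the others). Mertk, a receptor for dying cells, was the held call, at 25.2, 24.9 and 30.8 CPM in CTL bridge and 45.7, 38.2 and 41.3 CPM in CTL distal stump. For Mertk the log2 fold change was −0.63, SE 0.09 (edgeR adjusted p = 0.00352). The pan-macrophage genes Adgre1 and Csf1r were not called (log2 fold changes −0.09, adjusted p = 0.792, and −0.22, adjusted p = 0.320). Cd68, a lysosomal marker, was at 109.9, 98.8 and 142 CPM in CTL bridge and 258, 217 and 145 CPM in CTL distal stump. For Cd68 the log2 fold change was −0.82, SE 0.19 (edgeR adjusted p = 0.0242), and its adjusted p was 0.0929 after leaving out CTL bridge 1, 0.0846 after leaving out CTL bridge 2, 0.0926 after leaving out CTL distal stump 1 and 0.0810 after leaving out CTL distal stump 2. Of 20 complement genes 5 were lower and 2 higher (the number lower was 0 leaving out CTL bridge 1, CTL bridge 2 or CTL distal stump 1, 1 leaving out CTL distal stump 2 and 6 leaving out any 1 of the others, and the number higher was 0 leaving out CTL bridge 1, CTL distal stump 1 or CTL distal stump 2, 1 leaving out CTL bridge 3 and 2 to 3 leaving out any 1 of the others). C3, the central complement component, was at 139, 127 and 191 CPM in CTL bridge and 523, 459.7 and 323 CPM in CTL distal stump. For C3 the log2 fold change was −1.51, SE 0.30 (edgeR adjusted p = 0.0125), and its adjusted p was 0.0577 after leaving out CTL bridge 1, 0.0502 after leaving out CTL bridge 2 and 0.0533 after leaving out CTL distal stump 1.

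Chemokines and cytokines followed, with 12 of 32 lower, 0 higher and a median of −0.71. The number lower was 3 leaving out CTL bridge 1, CTL bridge 2, CTL distal stump 1 or CTL distal stump 2 and 10 to 13 leaving out any 1 of the others, and 2 without CTL bridge 1 and 3. Ccl2 (chromosome 11, 82035571 to 82037453), the chemokine that recruits monocytes, stood at 36.2, 41.0 and 44.5 CPM in CTL bridge and 127, 129 and 81.5 CPM in CTL distal stump. For Ccl2 the log2 fold change was −1.47, SE 0.19 (edgeR adjusted p = 0.00313). The neighbouring Ccl7 was at 24.0, 23.0 and 26.3 CPM in CTL bridge and 48.6, 58.1 and 33.2 CPM in CTL distal stump. For Ccl7 the log2 fold change was −0.93, SE 0.17 (edgeR adjusted p = 0.00988). Both calls were held, and CTL distal stump 3 was the distal library nearest to the bridge in each. In Nf1 KO nerves Ccl2 had a log2 fold change of −1.57 (adjusted p = 0.000872) and Ccl7 at −0.50 (adjusted p = 0.0714). Interferon-stimulated genes had 1 of 22 lower and 0 higher, T and NK cell genes 1 of 15 lower and neutrophil genes 1 of 12 lower. The shares were 4.55%, 6.67% and 8.33%, against 4.71% lower among all tested genes. None of 6 B and plasma cell or 9 mast cell genes was called by edgeR or by DESeq2. At an unadjusted p under 0.05 were 0 and 1 of them, against 4789 of all 19189 tested genes. Retnlg, the most abundant neutrophil gene, was at 44.3, 43.7 and 193 CPM in CTL bridge and 115, 153 and 116 CPM in CTL distal stump, and its groups overlapped. In the MHC class II and dendritic cell list, 2 of 16 were higher and 1 lower. The median log2 fold change was −0.15. The risen pair, Clec9a (7.32, 8.09 and 6.96 CPM in CTL bridge and 4.74, 4.18 and 4.78 CPM in CTL distal stump, log2 fold change 0.71, SE 0.11, edgeR adjusted p = 0.00562) and Zbtb46 (19.6, 18.3 and 16.2 CPM in CTL bridge and 12.3, 12.1 and 13.7 CPM in CTL distal stump, log2 fold change 0.50, SE 0.09, edgeR adjusted p = 0.0108), mark conventional dendritic cells, and both calls were held. The fall was Itgax, an integrin gene of dendritic cells that macrophages also express, at 16.6, 14.7 and 30.4 CPM in CTL bridge and 54.1, 56.5 and 37.3 CPM in CTL distal stump (log2 fold change −1.25, SE 0.26, edgeR adjusted p = 0.0154). Its groups did not overlap, and its adjusted p was 0.0677 after leaving out CTL bridge 1, 0.0508 after leaving out CTL bridge 2, 0.0595 after leaving out CTL distal stump 1 and 0.0601 after leaving out CTL distal stump 2.

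Among hedgehog signalling genes, the ligand gene Shh was lower in the bridge, and the target genes Hhip and Gli1 were higher. A hedgehog ligand binds PTCH receptors, which releases SMO and activates GLI factors, and these in turn switch on Gli1, Ptch1 and Hhip, whose product sequesters the ligand. The values of Shh are given above, and Dhh, the ligand that Schwann cells make in development, was at 133, 137 and 114 CPM in CTL bridge and 137, 142 and 141 CPM in CTL distal stump without a call (log2 fold change −0.13, SE 0.12, edgeR adjusted p = 0.593). Hhip (chromosome 8, 79965851 to 80058006) showed the largest rise among the held calls of abundant genes. It stood at 12.2, 10.1 and 11.0 CPM in CTL bridge and 0.742, 1.33 and 1.59 CPM in CTL distal stump. For Hhip the log2 fold change was 3.17, SE 0.42 (edgeR adjusted p = 0.00314). Every bridge library was far above every distal stump library.

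Gli1 (chromosome 10, 127329882 to 127341974) was at 24.7, 26.3 and 22.9 CPM in CTL bridge and 14.9, 16.8 and 14.5 CPM in CTL distal stump. For Gli1 the log2 fold change was 0.68, SE 0.09 (edgeR adjusted p = 0.00314). The groups did not overlap for Gli1 either, and CTL distal stump 3 was the distal library nearest to the bridge for Hhip. The co-receptor gene Cdon was called at a log2 fold change of 0.69 (adjusted p = 0.0116, and 0.0544 after leaving out CTL distal stump 1). Smo (log2 fold change 0.29) and Gli3 (log2 fold change 0.48) were called too, but the adjusted p of Smo was 0.0785 after leaving out CTL bridge 1, 0.0819 after leaving out CTL bridge 2, 0.0535 after leaving out CTL bridge 3, 0.112 after leaving out CTL distal stump 1 and 0.0696 after leaving out CTL distal stump 2, and that of Gli3 was 0.0884 after leaving out CTL bridge 1, 0.0962 after leaving out CTL bridge 2, 0.0670 after leaving out CTL bridge 3, 0.0908 after leaving out CTL distal stump 1 and 0.124 after leaving out CTL distal stump 2. The receptor gene Ptch1 (log2 fold change 0.25, SE 0.09, adjusted p = 0.113), Gli2 (0.68, SE 0.20, adjusted p = 0.0518) and the co-receptor gene Gas1 (0.43, SE 0.12, adjusted p = 0.0504) were higher in every bridge library without a call. In all, 6 of 14 hedgehog genes were higher and 1 lower (the number higher was 3 leaving out CTL distal stump 1 and 4 to 7 leaving out any 1 of the others, and 3 without CTL bridge 1 and 3), and the median log2 fold change was 0.46. The Nf1 KO libraries gave a median log2 fold change of 0.45, with Hhip at 3.29 (adjusted p = 0.00109) and Gli1 at 0.74 (adjusted p = 0.000831). The GLI site GACCACCCA, searched on both strands, was in none of the windows of the 11 list genes that have one, and is in 0.289% of genes with a window.

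**Figure D3:**
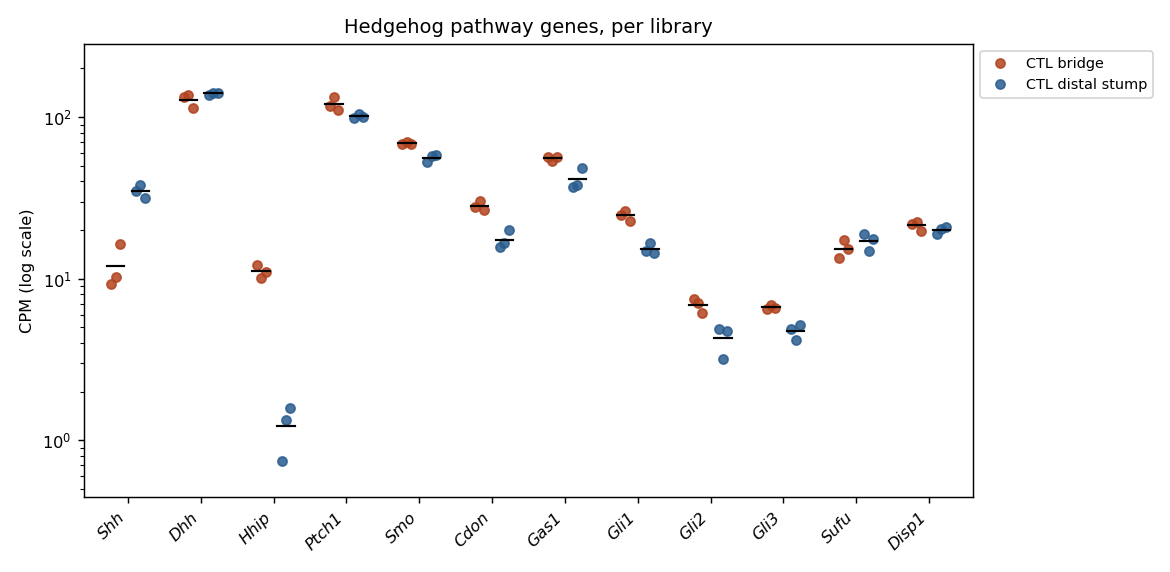
CPM (log scale) of 12 hedgehog pathway genes in the CTL bridge libraries (left of each pair) and the CTL distal stump libraries (right), with lines at the means. Shh is lower in the bridge, while Hhip and Gli1 are higher, Hhip by 3.17 on the log2 scale. Boc, with a library at 0, and Ihh, too low to test, are not drawn.

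Many collagen genes were higher in the bridge. Of 25 fibrillar and associated collagens, 12 were called higher and 1 lower, and the median log2 fold change was 0.50, and 10 of the rises were held. The number higher was 10 to 12 with any 1 library left out, and 4 without CTL bridge 1 and 3. Col3a1 (chromosome 1, 45311538 to 45349706), a fibrillar collagen of young scar tissue, stood at 7795, 8049 and 8177 CPM in CTL bridge and 2652, 3227 and 4209 CPM in CTL distal stump. For Col3a1 the log2 fold change was 1.25, SE 0.15 (edgeR adjusted p = 0.00227). The bridge libraries were close together, and CTL distal stump 3 was highest of the distal stump. Col1a2, a chain of the main fibrillar collagen, was at 2794, 3112 and 2956 CPM in CTL bridge and 1639.9, 1885 and 1943 CPM in CTL distal stump. For Col1a2 the log2 fold change was 0.70, SE 0.11 (edgeR adjusted p = 0.00493). Col6a3, a chain of the beaded-filament collagen, was at 494, 489.6 and 491 CPM in CTL bridge and 194, 211 and 283 CPM in CTL distal stump. For Col6a3 the log2 fold change was 1.10, SE 0.17 (edgeR adjusted p = 0.00494). Neither overlapped between regions.

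Col12a1, a collagen that decorates fibrils, was at 54.3, 62.3 and 55.7 CPM in CTL bridge and 24.4, 27.9 and 36.7 CPM in CTL distal stump. For Col12a1 the log2 fold change was 0.95, SE 0.13 (edgeR adjusted p = 0.00344). Col6a6, a less common chain of collagen VI, showed the largest rise of the list (20.5, 13.0 and 17.5 CPM in CTL bridge and 3.39, 2.82 and 6.15 CPM in CTL distal stump, log2 fold change 2.04, SE 0.33, edgeR adjusted p = 0.00577). In both genes all bridge libraries exceeded all distal stump libraries. The exception, Col7a1, the collagen of anchoring fibrils, was called lower at a log2 fold change of −1.26 (adjusted p = 0.0307), but the value was 0.109 after leaving out CTL bridge 1, 0.103 after leaving out CTL bridge 2, 0.113 after leaving out CTL distal stump 1 and 0.0671 after leaving out CTL distal stump 3. The list had a median log2 fold change of 0.66 in Nf1 KO, with Col3a1 at 1.05 (adjusted p = 0.00186) and Col6a6 at 2.33 (adjusted p = 0.00179).

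**Figure D4:**
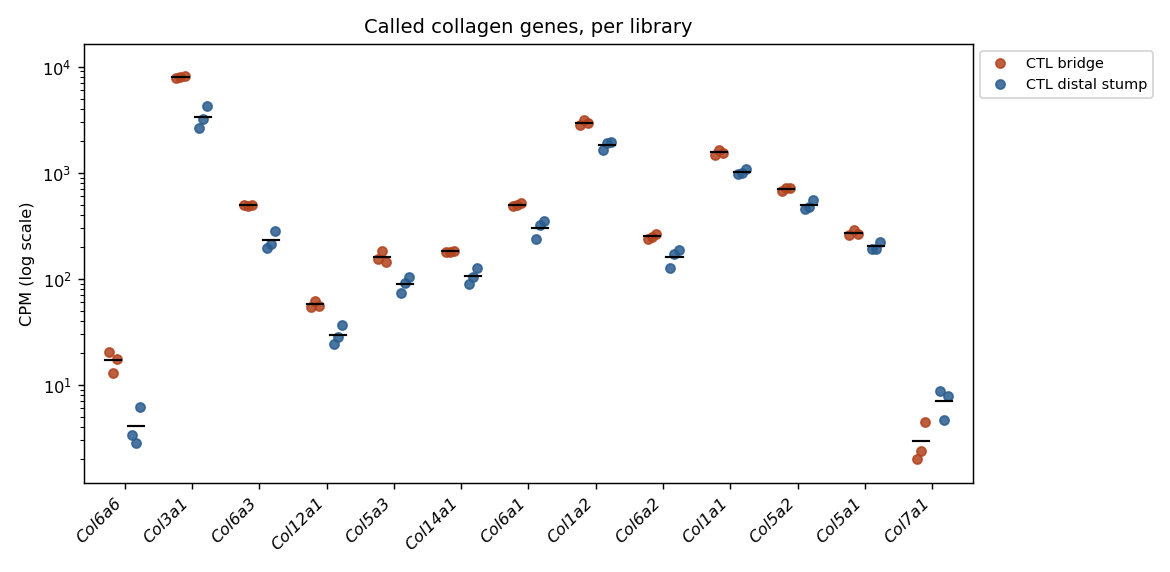
CPM (log scale) of the 13 called collagen genes in the CTL bridge libraries (left of each pair) and the CTL distal stump libraries (right), with lines at the means, ordered by log2 fold change. The bridge libraries lie above the distal stump libraries in 12 genes and below them in Col7a1, and for Col3a1 the distal stump point nearest to the bridge is CTL distal stump 3 at 4209 CPM.

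Genes that shape collagen were higher in part. Of 21 genes of collagen processing and cross-linking, 9 were higher and 1 lower (the number higher was 3 leaving out CTL distal stump 1 or CTL distal stump 2, 4 leaving out CTL bridge 1, CTL bridge 2 or CTL bridge 3 and 10 leaving out the other). The held rises included Loxl1, a lysyl oxidase gene (44.2, 43.2 and 47.9 CPM in CTL bridge and 20.2, 27.6 and 32.8 CPM in CTL distal stump, log2 fold change 0.74, SE 0.14, edgeR adjusted p = 0.0119), and Adamts2, the procollagen peptidase gene (85.1, 101 and 89.4 CPM in CTL bridge and 52.6, 61.1 and 69.0 CPM in CTL distal stump, log2 fold change 0.59, SE 0.09, edgeR adjusted p = 0.00521). For both, CTL distal stump 3 was nearest to the bridge without reaching it. Small leucine-rich proteoglycans had 5 of 15 higher and 0 lower (the number higher was 3 leaving out CTL distal stump 2 and 4 to 5 leaving out any 1 of the others). Dcn, decorin, was at 4234, 4290.5 and 4133 CPM in CTL bridge and 3219, 2901 and 2985 CPM in CTL distal stump. For Dcn the log2 fold change was 0.48, SE 0.07 (edgeR adjusted p = 0.00393). Kera, keratocan of the cornea and tendon, was low in both regions, at 2.71, 3.14 and 3.40 CPM in CTL bridge and 0.193, 0.199 and 0.823 CPM in CTL distal stump. For Kera the log2 fold change was 2.89, SE 0.55 (edgeR adjusted p = 0.0116). Both were separated without overlap. Ecm2 (log2 fold change 0.99, SE 0.09) was a further held rise of the list.

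Matricellular proteins, which tune cell adhesion to matrix, went both ways, 8 of 26 higher and 5 lower (the number higher was 3 leaving out CTL bridge 1 or CTL distal stump 2, 4 leaving out CTL distal stump 1, 5 leaving out CTL bridge 2 and 6 to 10 leaving out any 1 of the others, and the number lower was 0 leaving out CTL bridge 1, 2 leaving out CTL bridge 2, CTL distal stump 1 or CTL distal stump 2 and 4 to 6 leaving out any 1 of the others). Postn (chromosome 3, 54361109 to 54391037), periostin of healing tissue, stood at 1803, 1655 and 1874 CPM in CTL bridge and 778, 892 and 1144 CPM in CTL distal stump. For Postn the log2 fold change was 0.92, SE 0.16 (edgeR adjusted p = 0.00799). Spp1, osteopontin, was lower, at 382, 383 and 414 CPM in CTL bridge and 602, 591 and 563 CPM in CTL distal stump. For Spp1 the log2 fold change was −0.58, SE 0.14 (edgeR adjusted p = 0.0324), and its adjusted p was 0.110 after leaving out CTL bridge 1, 0.0941 after leaving out CTL bridge 2, 0.0531 after leaving out CTL bridge 3, 0.103 after leaving out CTL distal stump 1, 0.0952 after leaving out CTL distal stump 2 and 0.0503 after leaving out CTL distal stump 3. In Nf1 KO nerves Spp1 had a log2 fold change of −1.08 (adjusted p = 0.00127). Of 22 basement membrane genes 4 were higher and 2 lower (the number higher was 4 to 5 with any 1 library left out, and the number lower was 1 leaving out CTL bridge 1, CTL bridge 2, CTL bridge 3, CTL distal stump 1, CTL distal stump 2 or CTL distal stump 3). Col4a1 was at 406, 408 and 405 CPM in CTL bridge and 221, 253 and 282 CPM in CTL distal stump (log2 fold change 0.69, SE 0.09, edgeR adjusted p = 0.00258), whereas Lama5, the laminin alpha 5 chain gene, was at 13.1, 15.7 and 16.1 CPM in CTL bridge and 24.8, 26.2 and 24.2 CPM in CTL distal stump. For Lama5 the log2 fold change was −0.74, SE 0.12 (edgeR adjusted p = 0.00686). For neither gene did the regions overlap. Proteases and inhibitors had 5 of 30 higher and 3 lower (the number higher was 3 leaving out CTL bridge 2 or CTL distal stump 1 and 4 to 6 leaving out any 1 of the others, and the number lower was 5 leaving out CTL bridge 3 and 2 to 3 leaving out any 1 of the others), with Adamts12 at a log2 fold change of 1.15 (SE 0.10) and Mmp17 at −1.45 (SE 0.26) among the held calls.

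Transcription factors of mesenchyme were higher in part. Of 22 mesenchymal transcription factors, 6 were higher and 0 lower (the number higher was 3 leaving out CTL bridge 1 or CTL distal stump 1 and 4 to 6 leaving out any 1 of the others), and the median log2 fold change was 0.37. Meox2 (chromosome 12, 37108540 to 37179534), a homeobox gene of mesoderm, stood at 101, 109 and 99.8 CPM in CTL bridge and 42.0, 45.2 and 50.4 CPM in CTL distal stump. For Meox2 the log2 fold change was 1.17, SE 0.10 (edgeR adjusted p = 0.000535). Prrx2, a homeobox gene of limb mesenchyme, was at 12.0, 10.4 and 12.5 CPM in CTL bridge and 5.45, 3.39 and 6.17 CPM in CTL distal stump. For Prrx2 the log2 fold change was 1.21, SE 0.23 (edgeR adjusted p = 0.0111). Neither overlapped between regions. Fibroblast genes had 8 of 23 higher and 3 lower (the number higher was 4 leaving out CTL distal stump 2, 5 leaving out CTL bridge 1 or CTL distal stump 1 and 6 to 9 leaving out any 1 of the others, and the number lower was 1 leaving out CTL bridge 1 and 2 to 3 leaving out any 1 of the others). Fap, the fibroblast activation protein gene, was at 109.8, 120.3 and 106 CPM in CTL bridge and 52.6, 56.1 and 71.5 CPM in CTL distal stump (log2 fold change 0.90, SE 0.10, edgeR adjusted p = 0.00188), and Apod, which encodes apolipoprotein D and is abundant in injured nerve, was at 5991, 6127 and 9211 CPM in CTL bridge and 17734, 15953 and 13511 CPM in CTL distal stump. For Apod the log2 fold change was −1.15, SE 0.17 (edgeR adjusted p = 0.00493). The broad fibroblast receptors Pdgfra and Pdgfrb had log2 fold changes of 0.16 and 0.06 without a call.

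The list of invasive and mesenchymal transition genes had 3 of 16 higher and 2 lower (the number higher was 2 to 3 with any 1 library left out, and the number lower was 1 leaving out CTL bridge 1, CTL bridge 2, CTL distal stump 1 or CTL distal stump 2 and 2 leaving out any 1 of the others). Cdh11, a mesenchymal cadherin gene, was at 131, 136 and 131 CPM in CTL bridge and 72.1, 69.6 and 68.1 CPM in CTL distal stump (log2 fold change 0.92, SE 0.09, edgeR adjusted p = 0.000723), and Hmga2, a chromatin protein gene, at 1.95, 2.46 and 2.33 CPM in CTL bridge and 4.03, 3.52 and 3.52 CPM in CTL distal stump. For Hmga2 the log2 fold change was −0.71, SE 0.13 (edgeR adjusted p = 0.0109). Perineurial genes had 6 of 16 higher and 1 lower (the number higher was 3 leaving out CTL bridge 1 or CTL distal stump 1 and 4 to 7 leaving out any 1 of the others). Cldn1 (chromosome 16, 26356642 to 26371841), the claudin that seals the perineurium, stood at 325, 332 and 293 CPM in CTL bridge and 128, 126 and 133 CPM in CTL distal stump. For Cldn1 the log2 fold change was 1.29, SE 0.09 (edgeR adjusted p = 0.000417). The regions were far apart and each varied little. Itgb4, the integrin beta 4 gene shared by perineurium and Schwann cells, was lower (78.3, 99.4 and 99.5 CPM in CTL bridge and 148, 132 and 136 CPM in CTL distal stump, log2 fold change −0.58, SE 0.10, edgeR adjusted p = 0.00849). The glucose transporter gene Slc2a1, a perineurial and barrier marker, had a log2 fold change of −0.32 without a call (adjusted p = 0.113).

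Among secreted signalling pathways, TGF-beta and activin genes had 9 of 30 higher and 2 lower, and 7 of the rises were held (the number higher was 8 to 9 with any 1 library left out, and 3 without CTL bridge 1 and 3, and the number lower was 0 leaving out CTL bridge 1, CTL distal stump 1 or CTL distal stump 2, 1 leaving out CTL bridge 2 and 3 leaving out any 1 of the others). They included the latent TGF-beta binding protein genes Ltbp1 (186, 227 and 188 CPM in CTL bridge and 101, 107 and 138 CPM in CTL distal stump, log2 fold change 0.80, SE 0.14, edgeR adjusted p = 0.00815) and Ltbp4 (98.7, 127 and 109 CPM in CTL bridge and 54.2, 65.4 and 74.5 CPM in CTL distal stump, log2 fold change 0.78, SE 0.13, edgeR adjusted p = 0.00775). The ligand gene Tgfb3 was at 49.2, 49.4 and 44.8 CPM in CTL bridge and 27.8, 33.1 and 35.4 CPM in CTL distal stump. For Tgfb3 the log2 fold change was 0.57, SE 0.10 (edgeR adjusted p = 0.00851). In all 3 genes the regions did not overlap. The falls of the list were the ligand gene Tgfb1 (log2 fold change −0.55, edgeR adjusted p = 0.0460) and Pmepa1 (log2 fold change −0.44, edgeR adjusted p = 0.0168). Neither of these calls was held. The receptor genes Tgfbr1 and Tgfbr2 had log2 fold changes of 0.07 and 0.08 without a call. BMP genes had 7 of 26 higher and 1 lower (the number higher was 1 leaving out CTL bridge 2 or CTL distal stump 2, 2 leaving out CTL distal stump 1, 3 leaving out CTL bridge 1, 4 leaving out CTL bridge 3 and 6 leaving out the other), and Gdf10, a BMP-related ligand gene, was the held call (30.2 ± 5.38 CPM in CTL bridge and 16.0 ± 0.898 CPM in CTL distal stump (mean ± SD, n = 3 each), log2 fold change 0.91, SE 0.17, edgeR adjusted p = 0.0105).

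Wnt genes divided by member, 6 of 37 higher and 8 lower (the number higher was 1 leaving out CTL distal stump 1, 2 leaving out CTL bridge 1 or CTL distal stump 2 and 4 to 6 leaving out any 1 of the others, and the number lower was 5 leaving out CTL bridge 1 and 6 to 7 leaving out any 1 of the others). The ligand gene Wnt5a stood at 19.5, 19.3 and 18.3 CPM in CTL bridge and 5.87, 9.09 and 7.41 CPM in CTL distal stump. For Wnt5a the log2 fold change was 1.35, SE 0.17 (edgeR adjusted p = 0.00258). The ligand gene Wnt2b (chromosome 3, 104945272 to 104961921) was at 4.20, 4.13 and 7.26 CPM in CTL bridge and 18.3, 21.7 and 20.9 CPM in CTL distal stump. For Wnt2b the log2 fold change was −1.96, SE 0.20 (edgeR adjusted p = 0.000845). Frzb, a secreted Wnt antagonist gene, was at 38.0, 38.9 and 44.4 CPM in CTL bridge and 65.2, 77.8 and 66.2 CPM in CTL distal stump. For Frzb the log2 fold change was −0.78, SE 0.13 (edgeR adjusted p = 0.00707). All 3 calls were held, with Wnt5a in 1 direction and Wnt2b and Frzb in the other. Axin2, a common target of beta-catenin signalling, had a log2 fold change of −0.24 without a call (adjusted p = 0.379). In Nf1 KO, Wnt5a had a log2 fold change of 1.30 (adjusted p = 0.00124) and Wnt2b at −1.65 (adjusted p = 0.000772).

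Cholesterol synthesis genes were higher in the bridge. Cholesterol is a main lipid of myelin, and Schwann cells make most of their own. Of 23 genes 13 were called higher and 0 lower, and the median log2 fold change was 0.52. The number higher was 5 leaving out CTL bridge 1 or CTL distal stump 1, 6 leaving out CTL bridge 2 and 10 to 17 leaving out any 1 of the others, and 10 without CTL bridge 1 and 3. Held calls made up 5 of them. Hmgcs1 (chromosome 13, 119690379 to 119708260), which makes HMG-CoA, stood at 271, 290.1 and 193 CPM in CTL bridge and 132, 155 and 146 CPM in CTL distal stump. For Hmgcs1 the log2 fold change was 0.80, SE 0.15 (edgeR adjusted p = 0.00964). Idi1 (chromosome 13, 8885501 to 8892451), the isopentenyl diphosphate isomerase gene, was at 63.8, 72.2 and 45.6 CPM in CTL bridge and 29.2, 33.7 and 34.6 CPM in CTL distal stump. For Idi1 the log2 fold change was 0.89, SE 0.16 (edgeR adjusted p = 0.00893). Cyp51 (chromosome 5, 4081145 to 4104746), a sterol demethylase gene, was at 54.5, 59.1 and 39.6 CPM in CTL bridge and 24.4, 29.5 and 29.2 CPM in CTL distal stump. For Cyp51 the log2 fold change was 0.88, SE 0.14 (edgeR adjusted p = 0.00608). In each gene CTL bridge 3 was the lowest bridge library and still above the distal stump.

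Insig1, whose product holds back the activation of the sterol-sensing SREBP factors, was at 72.8, 70.5 and 53.6 CPM in CTL bridge and 38.4, 47.0 and 42.3 CPM in CTL distal stump (log2 fold change 0.62, SE 0.11, edgeR adjusted p = 0.00956), with no overlap. Fasn, the fatty acid synthase gene, had a log2 fold change of −0.43 without a call (adjusted p = 0.105). In Nf1 KO the list had a median log2 fold change of 0.59, with Idi1 at 1.08 (adjusted p = 0.00193) and Hmgcs1 at 0.90 (adjusted p = 0.00323).

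Promoter windows of 3 held genes are shown because these genes, of 1 pathway, were all called higher. Capitals mark CCAAT, the box bound by NF-Y, which works beside SREBP factors, on either strand, and in Hmgcs1 also TCACNCCAC, a form of the sterol response element. CCAAT was found for 15 of the 15 list genes with a window (8 of 8 called higher), against 41.1% of all genes with a window and 37.4% of all windows. TCACNCCAC was found for 1 of the 15, Hmgcs1, against 1.44% of genes. The motifs do not overlap each other. The windows are Hmgcs1 at chr13:119690101-119690400, plus strand, Idi1 at chr13:8885356-8885655, plus strand, and Cyp51 at chr5:4104648-4104947, minus strand.
Hmgcs1 promoter: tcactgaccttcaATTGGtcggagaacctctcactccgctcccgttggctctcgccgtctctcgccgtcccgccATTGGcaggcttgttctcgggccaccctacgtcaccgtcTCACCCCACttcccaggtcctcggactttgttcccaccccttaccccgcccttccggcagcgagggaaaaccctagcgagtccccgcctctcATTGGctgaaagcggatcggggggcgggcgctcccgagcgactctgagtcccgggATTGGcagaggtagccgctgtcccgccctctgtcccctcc
Idi1 promoter: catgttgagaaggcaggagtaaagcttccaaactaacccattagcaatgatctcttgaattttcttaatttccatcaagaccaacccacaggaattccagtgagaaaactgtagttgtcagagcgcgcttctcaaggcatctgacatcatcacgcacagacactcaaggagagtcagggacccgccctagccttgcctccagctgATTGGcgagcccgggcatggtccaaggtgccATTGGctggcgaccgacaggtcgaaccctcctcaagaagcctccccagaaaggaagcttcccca
Cyp51 promoter: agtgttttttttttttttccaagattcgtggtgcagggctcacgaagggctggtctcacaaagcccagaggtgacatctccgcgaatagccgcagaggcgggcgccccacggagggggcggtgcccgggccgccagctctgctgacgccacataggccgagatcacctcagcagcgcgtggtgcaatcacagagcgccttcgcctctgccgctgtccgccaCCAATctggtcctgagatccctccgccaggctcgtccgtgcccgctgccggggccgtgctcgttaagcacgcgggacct
Hmgcs1 contained 4 CCAAT boxes, Idi1 2 and Cyp51 1. Fasn, which was not called, holds CCAAT too.

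Some vessel genes were higher. Of 20 endothelial genes 5 were higher and 0 lower, and the median log2 fold change was 0.28 (the number higher was 2 leaving out CTL distal stump 1, 3 leaving out CTL bridge 1, CTL bridge 2, CTL bridge 3 or CTL distal stump 2 and 6 leaving out the other, and 0 without CTL bridge 1 and 3). Clec14a, an endothelial lectin gene, stood at 17.1, 16.1 and 15.3 CPM in CTL bridge and 7.35, 8.66 and 9.28 CPM in CTL distal stump. For Clec14a the log2 fold change was 0.94, SE 0.16 (edgeR adjusted p = 0.00672). The general markers Pecam1 (log2 fold change 0.22, adjusted p = 0.265) and Cdh5 (log2 fold change 0.35, adjusted p = 0.0683) were not called. Angiogenic tip and venous genes had 5 of 17 higher and 1 lower (the number higher was 1 leaving out CTL bridge 1, 2 leaving out CTL bridge 2, CTL distal stump 1 or CTL distal stump 2 and 4 leaving out any 1 of the others). The VEGF receptor gene Kdr was at 17.5, 18.2 and 17.1 CPM in CTL bridge and 10.8, 11.6 and 12.3 CPM in CTL distal stump. For Kdr the log2 fold change was 0.60, SE 0.12 (edgeR adjusted p = 0.0129), and its adjusted p was 0.0591 after leaving out CTL distal stump 1. Mural cells, the pericytes and smooth muscle of vessels, had 5 of 15 genes higher and 1 lower (the number higher was 3 leaving out CTL bridge 1, CTL bridge 2, CTL distal stump 1 or CTL distal stump 2 and 4 leaving out any 1 of the others). The pericyte potassium channel genes Kcnj8 (15.7, 15.5 and 14.7 CPM in CTL bridge and 4.55, 6.27 and 7.69 CPM in CTL distal stump, log2 fold change 1.31, SE 0.20, edgeR adjusted p = 0.00518) and Abcc9 (22.8, 18.2 and 21.9 CPM in CTL bridge and 8.48, 9.06 and 11.5 CPM in CTL distal stump, log2 fold change 1.11, SE 0.20, edgeR adjusted p = 0.00900) rose, as did Rgs5 (log2 fold change 0.95, SE 0.10). All 3 calls were held.

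Of 14 barrier vessel genes 3 were higher and 2 lower (the number higher was 3 with any 1 library left out, and the number lower was 0 leaving out CTL bridge 1, CTL bridge 2, CTL distal stump 1, CTL distal stump 2 or CTL distal stump 3 and 1 leaving out CTL bridge 3). The tight junction gene Ocln was at 18.2, 18.6 and 15.3 CPM in CTL bridge and 6.61, 7.14 and 7.05 CPM in CTL distal stump (log2 fold change 1.32, SE 0.14, edgeR adjusted p = 0.00121), whereas Cldn5, the endothelial claudin, had a log2 fold change of 0.00 (adjusted p = 0.996). Perineurium also expresses occludin. Lymphatic genes had 1 of 10 lower and 0 higher (10% lower, against 4.71% of all tested genes). Of 22 hypoxia and glycolysis genes 2 were higher and 1 lower (13.6% called, against 9.85% of all tested genes). The number higher was 1 leaving out CTL bridge 1, CTL bridge 3, CTL distal stump 1, CTL distal stump 2 or CTL distal stump 3 and 4 leaving out CTL bridge 2. Beside Vegfa they were Aldoa, also a muscle enzyme gene, with 1797, 700.0 and 1504 CPM in CTL bridge and 619, 705 and 569.6 CPM in CTL distal stump (log2 fold change 1.08, SE 0.30, edgeR adjusted p = 0.0464), and the lower Pfkfb4, with 23.2, 22.0 and 32.3 CPM in CTL bridge and 54.7, 50.6 and 42.3 CPM in CTL distal stump. For Pfkfb4 the log2 fold change was −0.92, SE 0.15 (edgeR adjusted p = 0.00558). Aldoa was high in CTL bridge 1 and 3, the libraries with most muscle RNA, and overlapped between regions. Its adjusted p was 0.168 after leaving out CTL bridge 1, 0.106 after leaving out CTL bridge 3, 0.139 after leaving out CTL distal stump 1, 0.103 after leaving out CTL distal stump 2 and 0.109 after leaving out CTL distal stump 3.

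Guidance genes, whose products steer axons and migrating cells, went both ways. Ephrins and Eph receptors had 6 of 19 higher and 1 lower (the number higher was 2 leaving out CTL bridge 2 or CTL distal stump 1, 3 leaving out CTL bridge 1 or CTL bridge 3 and 4 to 5 leaving out any 1 of the others). Ephb2, a receptor through which contact with fibroblasts makes Schwann cells cluster, stood at 38.8, 41.0 and 38.0 CPM in CTL bridge and 22.8, 27.4 and 25.4 CPM in CTL distal stump. For Ephb2 the log2 fold change was 0.64, SE 0.09 (edgeR adjusted p = 0.00337). Epha4 was at 11.8, 13.9 and 12.3 CPM in CTL bridge and 6.06, 6.67 and 7.35 CPM in CTL distal stump. For Epha4 the log2 fold change was 0.92, SE 0.10 (edgeR adjusted p = 0.00138). Epha5 was the fall of the list, at 32.3, 31.8 and 54.1 CPM in CTL bridge and 104, 93.5 and 85.9 CPM in CTL distal stump. For Epha5 the log2 fold change was −1.26, SE 0.18 (edgeR adjusted p = 0.00366). None of these genes overlapped between regions. Semaphorins, plexins and netrins had 8 of 28 lower and 3 higher (the number lower was 4 leaving out CTL bridge 1, 5 leaving out CTL distal stump 1 and 6 to 8 leaving out any 1 of the others, and the number higher was 1 leaving out CTL bridge 1, CTL bridge 2, CTL distal stump 1 or CTL distal stump 2, 5 leaving out CTL bridge 3 and 3 leaving out the other). Sema7a was at 21.8, 24.5 and 30.5 CPM in CTL bridge and 46.9, 47.4 and 38.1 CPM in CTL distal stump (log2 fold change −0.78, SE 0.15, edgeR adjusted p = 0.0108), Sema3e at a log2 fold change of −0.95 (SE 0.16), and the co-receptor gene Nrp1 at 148, 149 and 150.4 CPM in CTL bridge and 107, 96.5 and 94.7 CPM in CTL distal stump. For Nrp1 the log2 fold change was 0.59, SE 0.07 (edgeR adjusted p = 0.00209). Of 9 Slit and Robo genes 1 was called (11.1%, against 9.85% of all tested genes). Slit2, the ligand that repels axons and migrating cells, was lower at 56.5, 61.9 and 58.6 CPM in CTL bridge and 83.3, 80.5 and 83.9 CPM in CTL distal stump. For Slit2 the log2 fold change was −0.48, SE 0.06 (edgeR adjusted p = 0.00216). In Nf1 KO, Slit2 had a log2 fold change of 0.12 (adjusted p = 0.189).

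The remaining largest held rises belonged to no single list. Lgals7 (chromosome 7, 28863853 to 28866284), the galectin 7 gene, stood at 11.0, 20.9 and 19.8 CPM in CTL bridge and 1.87, 2.92 and 2.31 CPM in CTL distal stump. For Lgals7 the log2 fold change was 2.87, SE 0.28 (edgeR adjusted p = 0.000845). Prnd, a prion-related gene, was at 7.54 ± 1.41 CPM in CTL bridge and 1.19 ± 0.610 CPM in CTL distal stump (mean ± SD, n = 3 each). For Prnd the log2 fold change was 2.65, SE 0.41 (edgeR adjusted p = 0.00499). Crispld1 was at 43.6, 51.6 and 43.1 CPM in CTL bridge and 11.5, 11.2 and 16.0 CPM in CTL distal stump. For Crispld1 the log2 fold change was 1.83, SE 0.14 (edgeR adjusted p = 0.000417). In all 3 the highest distal stump library was well below the lowest bridge library. Tnmd, tenomodulin of tendon, had 11.3, 9.63 and 12.3 CPM in CTL bridge and 1.58, 1.79 and 3.96 CPM in CTL distal stump. For Tnmd the log2 fold change was 2.17, SE 0.31 (edgeR adjusted p = 0.00396). Heyl, a Notch target that pericytes also express, had 9.83, 10.3 and 7.94 CPM in CTL bridge and 1.26, 2.49 and 3.27 CPM in CTL distal stump. For Heyl the log2 fold change was 1.99, SE 0.37 (edgeR adjusted p = 0.0100). Others, each with its log2 fold change, included Emilin3 (2.33) and Cpz (2.19) of the matrix, the kinase gene Mapk10 (2.12), the imprinted gene Zim1 (1.76), the RAS-related gene Rerg (1.69) and the tetraspanin gene Tspan11 (1.68).

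Among the remaining largest held falls, Trf (chromosome 9, 103204001 to 103230444), the transferrin gene that Schwann cells express, stood at 347, 319 and 592 CPM in CTL bridge and 1214, 1040.1 and 1002 CPM in CTL distal stump. For Trf the log2 fold change was −1.37, SE 0.23 (edgeR adjusted p = 0.00689). Syt4, a synaptotagmin gene, was at 17.1, 18.3 and 27.8 CPM in CTL bridge and 68.8, 55.3 and 47.2 CPM in CTL distal stump. For Syt4 the log2 fold change was −1.43, SE 0.20 (edgeR adjusted p = 0.00344). Slc15a3, a lysosomal transporter gene, was at 14.7, 13.2 and 20.8 CPM in CTL bridge and 51.0, 46.6 and 29.6 CPM in CTL distal stump. For Slc15a3 the log2 fold change was −1.38, SE 0.22 (edgeR adjusted p = 0.00550). Each was lower in every bridge library. Given with their log2 fold changes, Fgd3 (−1.68), an exchange factor gene of the CDC42 family, Pla2g2d (−1.51), a secreted phospholipase gene, Slc37a1 (−1.46), Mmp17 (−1.45), Hmga1 (−1.40) and Clca3a2 (−1.78) completed them. Hmga1 and Clca3a2 have close copies elsewhere in the genome, and how reads that match several genes were counted is not given in the sources used here.

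Markers of other tissues were measured across the same libraries. Skeletal muscle fibre genes had a mean log2 CPM of 8.35, 5.89 and 8.02 in CTL bridge and 0.67, 3.10 and 4.22 in CTL distal stump. The median log2 fold change of the list was 4.69, and 18 of 20 genes did not overlap, and 2 were called, Casq1 and Neb (0 leaving out CTL bridge 1, CTL bridge 3, CTL distal stump 1 or CTL distal stump 2, 1 leaving out CTL distal stump 3 and 2 leaving out the other, and 0 without CTL bridge 1 and 3). DESeq2 called 13. In Nf1 KO the list had a median log2 fold change of 0.01, but the distal stump libraries were uneven. Its mean log2 CPM was 6.38, 4.67 and 5.47 in Nf1 KO bridge and 6.78, 0.53 and 2.47 in Nf1 KO distal stump. Nf1 KO distal stump 1 was thus above every Nf1 KO bridge library, and the remaining distal stump libraries were below all of them. Genes of denervated and forming muscle had 4 of 15 higher and 1 lower (the number higher was 1 leaving out CTL distal stump 1 or CTL distal stump 2, 2 leaving out CTL bridge 1 or CTL bridge 3, 10 leaving out CTL distal stump 3 and 4 leaving out the other). Musk, the muscle-specific kinase gene, was the held call (19.3, 17.9 and 20.6 CPM in CTL bridge and 13.8, 13.7 and 13.0 CPM in CTL distal stump, log2 fold change 0.51, SE 0.08, edgeR adjusted p = 0.00499). The part of muscle RNA in the other results was not tested. Counts without CTL bridge 1 and 3 stand beside only some of the lists above. In other lists, among them matricellular, BMP, HOX and mural cell genes, fewer members were called higher in that fit too.

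None of 14 adipocyte, 7 erythroid, 3 keratinocyte or 6 melanocyte genes was called by edgeR. At an unadjusted p under 0.05 there were 4 adipocyte, 0 erythroid, 2 keratinocyte and 1 melanocyte genes, against 4789 of all 19189 tested genes. DESeq2 called 1 adipocyte gene higher and 3 lower and 0 of the other 3 lists. The edgeR fit with a replicate block called 3 adipocyte genes lower, the fit without CTL bridge 2 called 1 adipocyte gene higher, and the fit without CTL distal stump 1 called 1 melanocyte gene higher. Sfn, the most abundant keratinocyte gene, was at 5.84, 5.70 and 5.12 CPM in CTL bridge and 7.19, 7.14 and 7.02 CPM in CTL distal stump, and Mitf, the most abundant of the melanocyte list, at 21.9, 23.2 and 22.1 CPM in CTL bridge and 22.0, 18.5 and 18.6 CPM in CTL distal stump. Cfd, the most abundant fat gene, was at 337, 403 and 430.2 CPM in CTL bridge and 495, 590.4 and 837 CPM in CTL distal stump (log2 fold change −0.72, SE 0.33, edgeR adjusted p = 0.214), and Hbb-bs, a globin gene, at 1293, 685 and 1803 CPM in CTL bridge and 1275, 337 and 777 CPM in CTL distal stump, with overlap. Of 9 neuronal and axonal genes 2 were lower (1 leaving out CTL bridge 1, CTL bridge 2, CTL distal stump 1 or CTL distal stump 2 and 2 leaving out any 1 of the others). Uchl1 was at 35.0, 36.4 and 44.9 CPM in CTL bridge and 63.0, 71.6 and 58.2 CPM in CTL distal stump (log2 fold change −0.73, SE 0.12, edgeR adjusted p = 0.00781), and Tubb3, the most abundant of the list, at 25.2, 22.6 and 45.1 CPM in CTL bridge and 81.9, 78.2 and 65.3 CPM in CTL distal stump (log2 fold change −1.27, SE 0.28, edgeR adjusted p = 0.0191), with an adjusted p of 0.0803 after leaving out CTL bridge 1, 0.0659 after leaving out CTL bridge 2, 0.0695 after leaving out CTL distal stump 1 and 0.0637 after leaving out CTL distal stump 2. The neurofilament genes Nefl and Nefm had log2 fold changes of 0.36 and −0.20 without a call. Cartilage and bone genes had 3 of 11 lower and 1 higher, Runx2 and Tnmd being held (the number lower was 1 leaving out CTL bridge 1, CTL bridge 2 or CTL distal stump 1 and 2 leaving out any 1 of the others). Proliferation genes had 3 of 28 lower and 0 higher, and the median log2 fold change was −0.29 (the number lower was 0 leaving out CTL distal stump 1, 1 leaving out CTL bridge 1 or CTL distal stump 2, 7 leaving out CTL bridge 3, 10 leaving out CTL distal stump 3 and 2 leaving out the other), and Mki67, a marker of cycling cells, was not called (17.6, 17.2 and 20.5 CPM in CTL bridge and 30.0, 21.6 and 20.6 CPM in CTL distal stump, log2 fold change −0.38, SE 0.14, edgeR adjusted p = 0.121). RAS/ERK feedback genes had 3 of 20 lower (1 leaving out CTL bridge 1, CTL bridge 3, CTL distal stump 1 or CTL distal stump 2 and 2 to 4 leaving out any 1 of the others), with Ccnd1, cyclin D1, held at 193, 191 and 257 CPM in CTL bridge and 411, 406 and 340.0 CPM in CTL distal stump (log2 fold change −0.85, SE 0.13, edgeR adjusted p = 0.00470). Immediate early genes had 2 of 14 lower (0 leaving out CTL bridge 1 or CTL distal stump 1, 1 leaving out CTL bridge 2 or CTL distal stump 2 and 2 to 3 leaving out any 1 of the others). The shares lower were 10.7% of proliferation, 15% of RAS/ERK feedback and 14.3% of immediate early genes, against 4.71% of all tested genes.

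The libraries of each region were not equally far from the other region. Among the 903 genes called lower, CTL bridge 3 was the bridge library nearest to the distal stump mean in 691 (76.5%), and among the 988 called higher in 425 (43.0%). CTL distal stump 3 was nearest to the bridge mean in 65.2% of the falls and 62.3% of the rises. With both left out, an alternative chosen after seeing the data, 1939 genes were called, 868 higher and 1071 lower. Repair list genes lower then numbered 16, lipid-handling macrophage genes 14, collagens higher 12 and cholesterol genes higher 16. Why these pools stand between the regions was not tested.

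**Figure D5:**
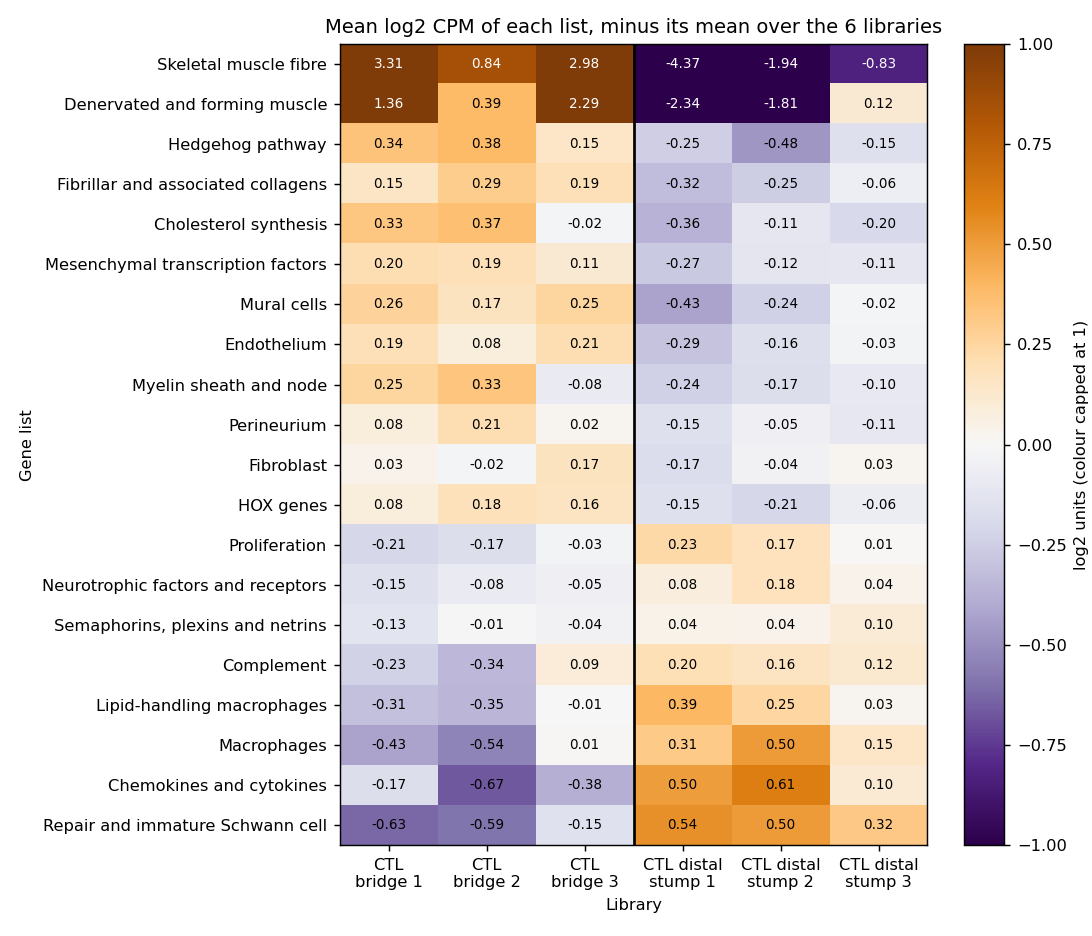
Mean log2 CPM of the 20 gene lists drawn in each of the 6 libraries, minus the mean of the list over the 6, with CTL bridge libraries on the left and CTL distal stump libraries on the right. Repair Schwann cell genes run from −0.63 in CTL bridge 1 to 0.54 in CTL distal stump 1, with CTL bridge 3 at −0.15 and CTL distal stump 3 at 0.32 between the others. Colours are capped at 1, which skeletal muscle genes pass in CTL bridge 1 (3.31) and CTL bridge 3 (2.98).

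HOX genes, which keep positional identity, had 5 of 31 higher and 0 lower (the number higher was 1 leaving out CTL bridge 2, 2 leaving out CTL bridge 1, CTL distal stump 1 or CTL distal stump 2, 3 leaving out CTL bridge 3 and 5 leaving out the other). Hoxa7 was the held call, at 9.11, 9.04 and 9.45 CPM in CTL bridge and 5.77, 5.31 and 6.02 CPM in CTL distal stump (log2 fold change 0.69, SE 0.10, edgeR adjusted p = 0.00361), with every bridge library above every distal stump library. Hoxc10 was called at a log2 fold change of 0.68 (adjusted p = 0.0281), but the value was 0.0884 after leaving out CTL bridge 1, 0.0712 after leaving out CTL bridge 2, 0.0526 after leaving out CTL bridge 3, 0.0641 after leaving out CTL distal stump 1 and 0.103 after leaving out CTL distal stump 2.

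Whether the regional difference itself depended on Nf1 was tested as an interaction over all genes. No gene was called by edgeR, with 2534 genes at an unadjusted p under 0.05, while DESeq2 called 447. The call of a gene in 1 genotype and not in the other does not by itself show a difference between them. For Artn the interaction, the Nf1 KO difference minus the CTL difference on the log2 scale, was 1.27 (adjusted p = 0.271), and for Shh it was 0.62 (adjusted p = 0.432). For Slit2 it was 0.61 (adjusted p = 0.0873) and for Hhip 0.11 (adjusted p = 0.962).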

How the data were processed

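RNA was measured by sequencing of rRNA-depleted, directional libraries made with 15 cycles of amplification, per the labels' protocols. The authors deposited a table of estimated counts per gene, 1 column for each of 12 libraries, in whole numbers. Named in the submitters' processing notes are the build mm10, DESeq2, cutadapt 1.2.1 and CASAVA 1.8.2, and neither the aligner nor the counting tool nor its use of strand is given in them. Among short genes low counts are absent, so the values may be adjusted for gene length.

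Genes were filtered by filterByExpr, scaled by TMM and fitted with edgeR 4.0.16 (R 4.3.3) as 1 coefficient per group over all 12 libraries, and the quasi-likelihood test with Benjamini-Hochberg adjustment at 0.05 compared CTL bridge with CTL distal stump. Alternatives used DESeq2 1.42.0, limma-voom 3.58.1, other scalings and filters, a replicate block, a test against log2 0.5 and left-out libraries. On simulated data for CTL bridge against CTL distal stump (18780 genes), the fit recovered 19.4%, 55.2% and 75.8% of genes changed by log2 0.5, 1 and 2, and 6.54% of 107 calls were false.

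Lists and members were chosen with earlier results of these data known. Genes named were the 15 largest held rises and falls with a mean log2 CPM of at least 1, from each list up to 4 called members of smallest p, the most abundant member of 7 lists of other tissues or cells, and Nf1. Some genes that this rule names are not reported here. Sox10, Jun and other members named outside it were chosen after their values were seen. Coordinates are from GENCODE release 21 for mouse (GRCm38), in which 30123 of 30452 identifiers were found, and promoters are from RefSeq (GRCm38.p6). Depth limits the precision of genes with low counts most.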

Additional observations from a re-analysis of the deposited data

Results flagged for a closer look

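In a pair of genes and 1 list, every bridge library lay on one side of the distal stump in CTL and on the other side in Nf1 KO. The difference was called by DESeq2 for both genes and by edgeR for neither, and it is given as the log2 regional difference in Nf1 KO minus that in CTL. For Gjc3, a gap junction gene of myelinating Schwann cells, the value was −0.68 (log2 fold changes −0.20 in Nf1 KO and 0.48 in CTL, adjusted p of the difference 0.139 by edgeR and 0.00262 by DESeq2). In CTL, Gjc3 stood at 210.2, 214 and 161 CPM in CTL bridge and 149.7, 133 and 138 CPM in CTL distal stump. For Rrm2, a ribonucleotide reductase gene of dividing cells, it was 0.76 (log2 fold changes 0.39 in Nf1 KO and −0.38 in CTL, adjusted p of the difference 0.0873 by edgeR and 1.77e-05 by DESeq2). In CTL, Rrm2 stood at 13.3, 14.1 and 15.9 CPM in CTL bridge and 19.8, 18.4 and 18.2 CPM in CTL distal stump. The mean of the proliferation list differed by 0.50, and this difference was not tested.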

How the results depend on the processing

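The 1891 calls (988 higher, 903 lower) became 869 (514 and 355) with the 6 CTL libraries alone, 61 (45 and 16) against a log2 fold change of 0.5, 506 (212 and 294) without CTL bridge 1 and 3, and 65 (51 and 14) without both CTL libraries numbered 1. Leaving out each CTL library in turn gave 681 to 1906 calls, 389 to 953 higher and 268 to 957 lower. The causes were not tested, although these fits hold fewer samples. In 20 cases a gene list had 1 call in a direction, and in 12 of them leaving out some 1 library ended it. Other scalings, filters, limma-voom, DESeq2 and the block shared by all groups gave 1497 to 2727. With the replicate number as a block the count was 1497, and with a replicate block within genotype 853 (506 and 347). Deviations of same-numbered libraries correlated by 0.0277, 0.0068 and 0.0298, and the numbers were not taken to pair them. With 3 pools a group these correlations cannot exclude shared mice, and the labels do not say whether same-numbered pools share mice. The interaction had 0 calls except by DESeq2, with 447, and the cause was not tested. Over named genes, 2681 values kept direction and call, 627 lost the call, 4 gained it and 6 changed sign, none of them called: Hbb-bs to −0.22 without CTL bridge 1 and 3, and Nf1 to 0.0062 without CTL bridge 3 (left out in turn, libraries gave −0.11 to 0.0260), 0.0260 without CTL distal stump 1, 0.0561 without CTL bridge 1 and 3, 0.0352 without both libraries numbered 1, and 0.0369 without CTL bridge 3 and CTL distal stump 3. The simulated data gave 107 calls and a recovery of 19.4% of changes of log2 0.5. With 1891 calls here that setting differs, so the share of such changes missed in these data was not measured.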

Other observations

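Imprinted genes, expressed from 1 parental copy and many of them active in growing tissue, were gathered after their values had been seen, so the following is a description. Of 29 listed genes 20 were tested. Of these, 9 were called higher in CTL bridge and 2 lower, against 5.15% and 4.71% of all tested genes. The median log2 fold change was 0.48. The 4 held calls were Zim1, Peg3, Igf2r and Gnas. Mest was the most changed, at 252, 239 and 266 CPM in CTL bridge and 46.0, 54.1 and 108 CPM in CTL distal stump (log2 fold change 1.86, SE 0.43, edgeR adjusted p = 0.0246), with the bridge libraries close together and CTL distal stump 3 nearest to them. Its adjusted p was 0.0706 after leaving out CTL bridge 1, 0.0568 after leaving out CTL bridge 2, 0.0981 after leaving out CTL distal stump 1 and 0.0984 after leaving out CTL distal stump 2, and its log2 fold change in Nf1 KO was 3.38. Peg3, a zinc finger gene, stood at 31.9, 34.1 and 36.6 CPM in CTL bridge and 20.8, 20.7 and 25.6 CPM in CTL distal stump. For Peg3 the log2 fold change was 0.61, SE 0.11 (edgeR adjusted p = 0.00987). Igf2r, the receptor gene that removes IGF2, was at 94.1, 99.8 and 89.8 CPM in CTL bridge and 61.7, 57.6 and 70.8 CPM in CTL distal stump. For Igf2r the log2 fold change was 0.58, SE 0.08 (edgeR adjusted p = 0.00419). Neither overlapped between regions. Igf2 itself was not called (29.8, 35.3 and 36.1 CPM in CTL bridge and 33.5, 41.4 and 32.8 CPM in CTL distal stump, log2 fold change −0.09, SE 0.15, edgeR adjusted p = 0.798). The lower genes were Peg10, at 3.84, 4.45 and 4.63 CPM in CTL bridge and 7.93, 6.97 and 6.04 CPM in CTL distal stump, and Impact, at 41.8, 45.5 and 45.7 CPM in CTL bridge and 52.5, 52.9 and 49.9 CPM in CTL distal stump, with log2 fold changes of −0.69 and −0.22. Their adjusted p was 0.116 after leaving out CTL bridge 1, 0.0766 after leaving out CTL bridge 2, 0.0501 after leaving out CTL bridge 3, 0.118 after leaving out CTL distal stump 1 and 0.0871 after leaving out CTL distal stump 2 for Peg10 and 0.0892 after leaving out CTL bridge 1, 0.0843 after leaving out CTL distal stump 1 and 0.0840 after leaving out CTL distal stump 2 for Impact.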
